A study of Homo sapiens with 6 samples.

Results

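The OAS and MX genes encode antiviral enzymes of the interferon response, and the 6 described here are OAS1, OAS2, OAS3, OASL, MX1 and MX2. They were taken by symbol from the authors' deposited table, which lists 6018 genes, and all 6 were listed. The table compares a condition C with a condition V in RNA sequencing of C4-2B, a widely used human prostate cancer cell line of the LNCaP lineage that grows at castrate androgen levels. The series holds 3 libraries of parental C42B cells, passaged in 1% DMSO and given as passage 0. It also holds 3 libraries of C42-B-Abi cells, selected by passage in abiraterone raised from 1 to 20 µM for at least 6 months, kept in 5 µM and given as passage 15 to 18. Abiraterone inhibits CYP17A1, an enzyme of androgen synthesis. Both lines grew in RPMI 1640 with 10% serum. The protocol recorded for the libraries of both lines also names 10 µM abiraterone before extraction, without saying clearly which line received it. The labels tie passage number to line, so the effects of passage and of drug cannot be told apart.

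The header of the authors' deposited table calls C control and V vehicle, and gives positive fold changes to genes higher in C. Library titles carry a V for the parental line, which was passaged in vehicle, while the series text calls that same line the control. No label joins C to either line, and directions are therefore stated by these letters alone. The table used here has no column per library. Values per library, their overlap between groups and depth are thus unknown, and no test of these genes was run beyond the authors' own Wald test. Nothing in the labels says that libraries of 1 line came from separate cultures, so the spread behind the listed p-values may be technical.

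The OAS1, OAS2 and OAS3 proteins are sensors of double-stranded RNA, a sign of viral replication. Once bound to it they join ATP into 2-5A, a chain of adenylates that acts as a signal inside infected cells. OASL shares their fold but makes no 2-5A. It carries ubiquitin-like domains and is known to promote signalling by the RNA sensor RIG-I. MX1 and MX2 are dynamin-like GTPases that assemble on viral ribonucleoproteins or capsids; MX1 is best known for blocking influenza viruses and MX2 for blocking HIV-1. Interferons of type I and type III raise all of these genes through JAK-STAT signalling, which acts on the interferon-stimulated response element of their promoters. OASL can also be switched on directly by IRF3. LNCaP cells are known for a poor response to interferon, which has been linked to loss of the kinase JAK1.

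All 6 genes were higher in V. A gene was called when its adjusted p in the authors' deposited table (DESeq2, Wald test, Benjamini-Hochberg) was under 0.05, and 6 of the 6 were called, with 0 higher in C. Of all listed genes 43.4% were called higher in V and 46.0% higher in C. Of the 2954 listed protein-coding genes 61.0% were called higher in V. The table holds only genes with p under 0.05, and none with a log2 fold change near 0, so most listed genes are called: 89.4% were called in either direction. A share of 6 in 6 is read against these percentages. The median log2 fold change of the 6 genes in the authors' deposited table was -6.55, against -2.40 over the 2609 genes called higher in V and 1.26 over all listed genes. What set the 6 apart from each other was size. The listed log2 fold changes ran from -12.49 for OASL to -1.41 for MX1 in the authors' deposited table.

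Levels in C and V are not listed. They were solved for each gene from the listed mean and fold change, assuming equally many libraries on both sides, and carry no error. In bulk RNA, a change in the share of cells that express a gene and a change in RNA per cell cannot be told apart.

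OASL had the largest difference of the 6. The authors' deposited table gives it a mean of 7609 normalised counts and a log2 fold change of C over V of -12.49 ± 0.48 (SE), with adjusted p = 4.76e-144 (DESeq2). Derived levels were 2.65 (C) and 15216 (V) normalised counts. By fold change it stood at place 5 among all genes called higher in V and at place 4 among the protein-coding ones, of which there are 1802. Per kb of exon its V level, 4326 normalised counts, was at place 6 among the 2954 listed protein-coding genes, while 23.2% of those genes had a lower C level per kb. OASL thus stood in the lower part of the listed genes in C and near the top in V.

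OAS1 and OAS2, which both make 2-5A, followed. For OAS1 the authors' deposited table lists a mean of 456 normalised counts, a log2 fold change of -7.78 ± 0.40 (SE) and adjusted p = 6.82e-84 (DESeq2). Its derived level was 4.12 in C and 908 in V. For OAS2 the mean was 215 normalised counts and the log2 fold change -9.51 ± 1.03 (SE) in the authors' deposited table, with adjusted p = 2.38e-19 (DESeq2). The derived C level of OAS2 was 0.59 normalised counts against 430 in V, so almost no OAS2 RNA was counted in C and the fold change has a wide error.

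OAS3, the largest 2-5A synthetase, was the 1 gene of the family with a clear level in C. The authors' deposited table gives a mean of 1164 normalised counts and a log2 fold change of -3.00 ± 0.10 (SE), with adjusted p = 1.21e-196 (DESeq2). Its derived level was 259 in C and 2069 in V, an 8.0-fold difference with a 95% interval of 6.99 to 9.16. Although its fold change was among the smaller ones, its p-value was the lowest of the 6, at place 79 of all listed genes, against place 140 for OASL.

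The MX genes were weakly expressed on both sides. MX2 had a mean of 16.2 normalised counts and a log2 fold change of -5.32 ± 1.08 (SE) in the authors' deposited table, with adjusted p = 4.13e-06 (DESeq2). Its derived level was 0.79 in C and 31.6 in V, and its fold change too has a wide error. MX1 had the smallest difference. The authors' deposited table lists a mean of 35.1 normalised counts, a log2 fold change of -1.41 ± 0.37 (SE) and adjusted p = 0.000523 (DESeq2). The derived level of MX1 was 19.1 in C and 51.0 in V, a 2.67-fold difference with a 95% interval of 1.61 to 4.42. On the log2 scale the interval of MX1 reaches to -0.68. Under stricter rules the count changed: at adjusted p under 0.001 all 6 genes were called (31.0% of all listed genes higher in V), with the interval wholly beyond 1 it was 5 (31.8%), with a log2 size of 2 or more also 5 (26.2%), and with a mean of 100 or more 4 (14.6%). MX1 was lost under the last 3 rules and MX2 under the last.

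**Figure D1:**
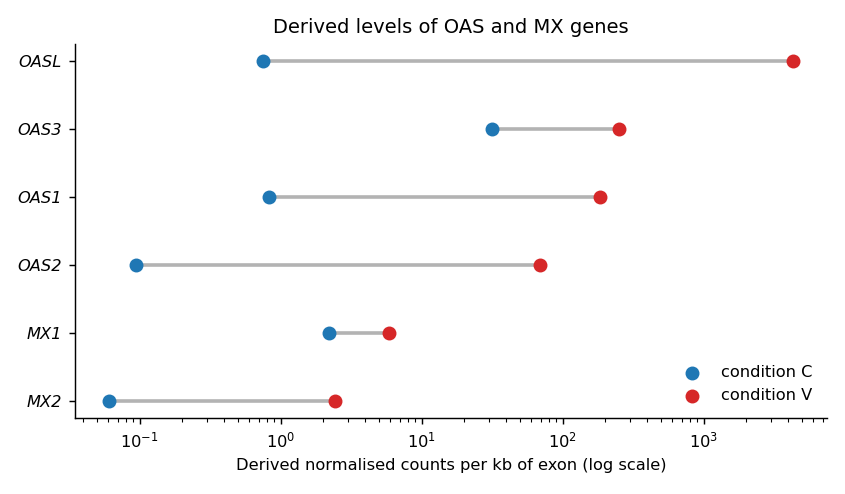
Derived normalised counts per kb of exon (log axis) for the 6 genes in condition C (blue) and condition V (red), each pair joined by a grey line; the derived values have no error. OASL spans from 0.753 to 4326, OAS3 starts from the highest C level at 31.4, and the MX genes stay below 6 on both sides.

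In order of fold change the genes were OASL, OAS2, OAS1, MX2, OAS3 and MX1. Normal 95% intervals from the standard errors of the authors' deposited table were used to compare neighbours in this order. The intervals of OAS2 and OAS1 overlapped, as did those of OAS1 and MX2. Between OASL and OAS2 the intervals missed each other narrowly, with bounds at -11.54 and -11.52. They also barely missed between MX2 and OAS3, at -3.20 and -3.19. OAS3 and MX1 were clear of each other, with bounds at -2.80 and -2.14. Overlap of intervals is not a test of a difference, and the differences between these genes were not tested.

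**Figure D2:**
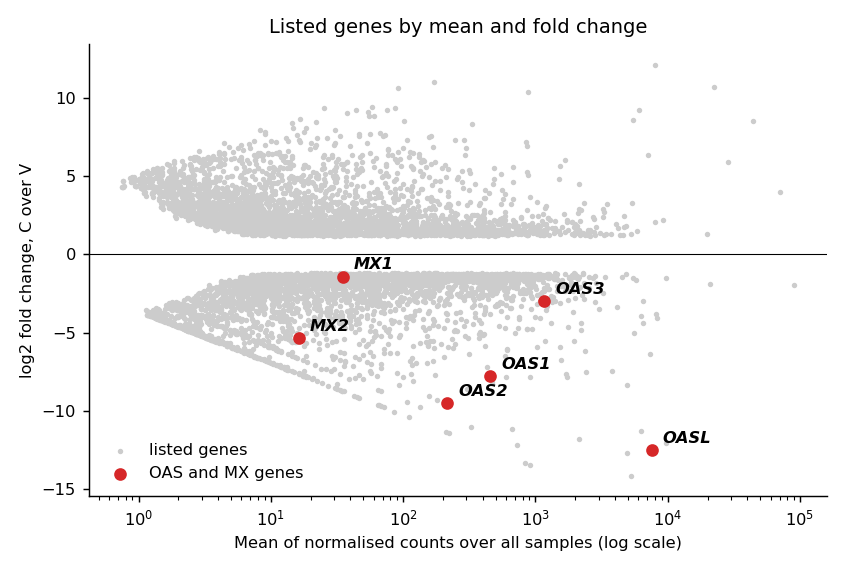
Log2 fold change of C over V against the listed mean of normalised counts (log axis) for all 6018 listed genes (grey) and the 6 OAS and MX genes (red). No gene is listed in the band around 0; OASL lies at the lower right and MX1 next to the band.

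Precision followed the level on the lower side. For all called genes, the median standard error was 1.34 where the lower derived level was under 1 normalised count, 0.61 from 1 to 10, 0.26 from 10 to 100 and 0.11 above 100. OAS2 and MX2 fall in the first class with standard errors of 1.03 and 1.08 in the authors' deposited table. OASL and OAS1 are in the second, at 0.48 and 0.40. MX1, in the third, has 0.37 in the authors' deposited table, above the upper quartile of its class (0.34). OAS3, in the last, has 0.10.

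**Figure D3:**
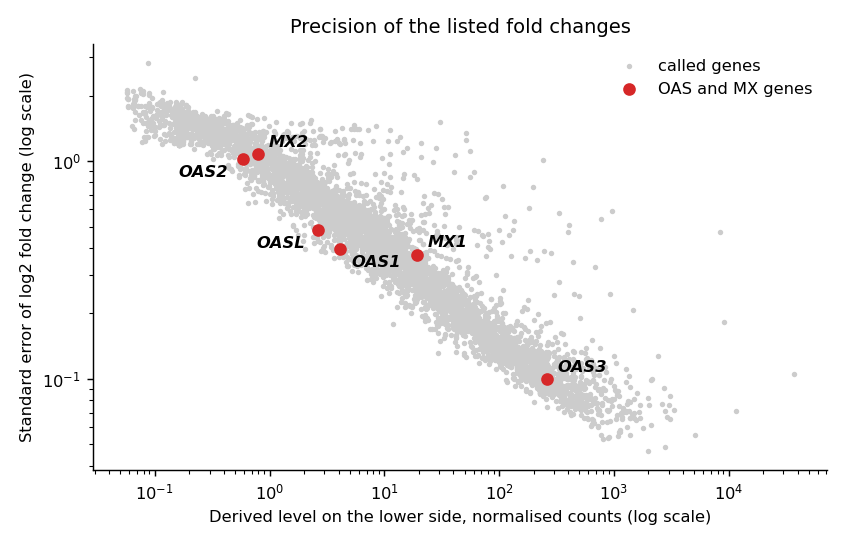
Standard error of the listed log2 fold change against the derived level on the lower side, both on log axes, for called genes (grey) and the OAS and MX genes (red). OAS2 and MX2 sit at the imprecise end with standard errors above 1, and OAS3 at the precise end with 0.10.

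Levels can be compared between genes only per length. Exon lengths were the merged exons of each gene in GENCODE release 29, from 3517 bases for OASL to 13047 for MX2. In C the order per kb of exon was OAS3 (31.4 normalised counts per kb), MX1 (2.22), OAS1 (0.834), OASL (0.753), OAS2 (0.0942) and MX2 (0.0606). In V it was OASL (4326 normalised counts per kb), OAS3 (251), OAS1 (184), OAS2 (68.6), MX1 (5.92) and MX2 (2.42). The makeup of the family thus differed between the conditions. OAS3 made up 94.9% of the summed OAS level per kb in C and 5.19% in V, whereas OASL made up 2.28% in C and 89.6% in V. The sum over the 4 OAS genes was 33.0 normalised counts per kb in C and 4829 in V, a 146-fold difference. Over both MX genes it was 2.28 in C and 8.34 in V, a 3.66-fold difference, and MX1 made up 97.3% of the MX sum in C and 71.0% in V. Lengths of the longest coding sequence instead of exons put OAS1 (731 per coding kb) above OAS3 (635) in V and left the other 4 genes in place. In C they put MX2 (0.369 per coding kb) above OAS2 (0.271).

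By GENCODE release 29, on GRCh38, OAS1 (ENSG00000089127) runs from 112906777 to 112933222 on the plus strand of chromosome 12. OAS3 (ENSG00000111331) follows from 112938352 to 112973249 and OAS2 (ENSG00000111335) from 112978395 to 113011723, both also on the plus strand. The gaps between them are 5.13 and 5.14 kb. The gene with the smallest fold change of these neighbours, OAS3, is the middle one. OASL (ENSG00000135114) lies 8.01 Mb away on the minus strand, at 121019111 to 121039242. MX2 (ENSG00000183486) and MX1 (ENSG00000157601) are neighbours on the plus strand of chromosome 21, at 41361943 to 41409390 and 41420304 to 41459214, 10.9 kb apart. The build of the authors' own annotation is not given in the sources used here.

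Other protein-coding genes within 250 kb were mostly not listed. How often annotated protein-coding genes are listed at all was not computed, so the counts below have no share to be read against. Around the OAS trio 1 of 8 was listed, RASAL1, a Ras GTPase activator, at -2.35 ± 0.38 (SE) in the authors' deposited table. Around OASL 1 of 6 was listed, the ATP-gated channel P2RX7, at -3.70 ± 0.34 (SE) in the authors' deposited table. Around the MX pair 2 of 3 were listed. BACE2, a protease related to beta-secretase, was higher in V at -5.95 ± 0.32 (SE) in the authors' deposited table, with derived levels of 7.54 in C and 466 in V. FAM3B, a secreted protein 4.51 kb from MX2, was higher in C at 2.04 ± 0.84 (SE) in the authors' deposited table, at derived levels of only 7.05 and 1.71. TMPRSS2, the androgen-regulated protease gene 5.34 kb beyond MX1, was not listed, nor was RPH3A beside OAS1. A gene not listed may have missed either limit of the table, and nothing is known here of its level.

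**Figure D4:**
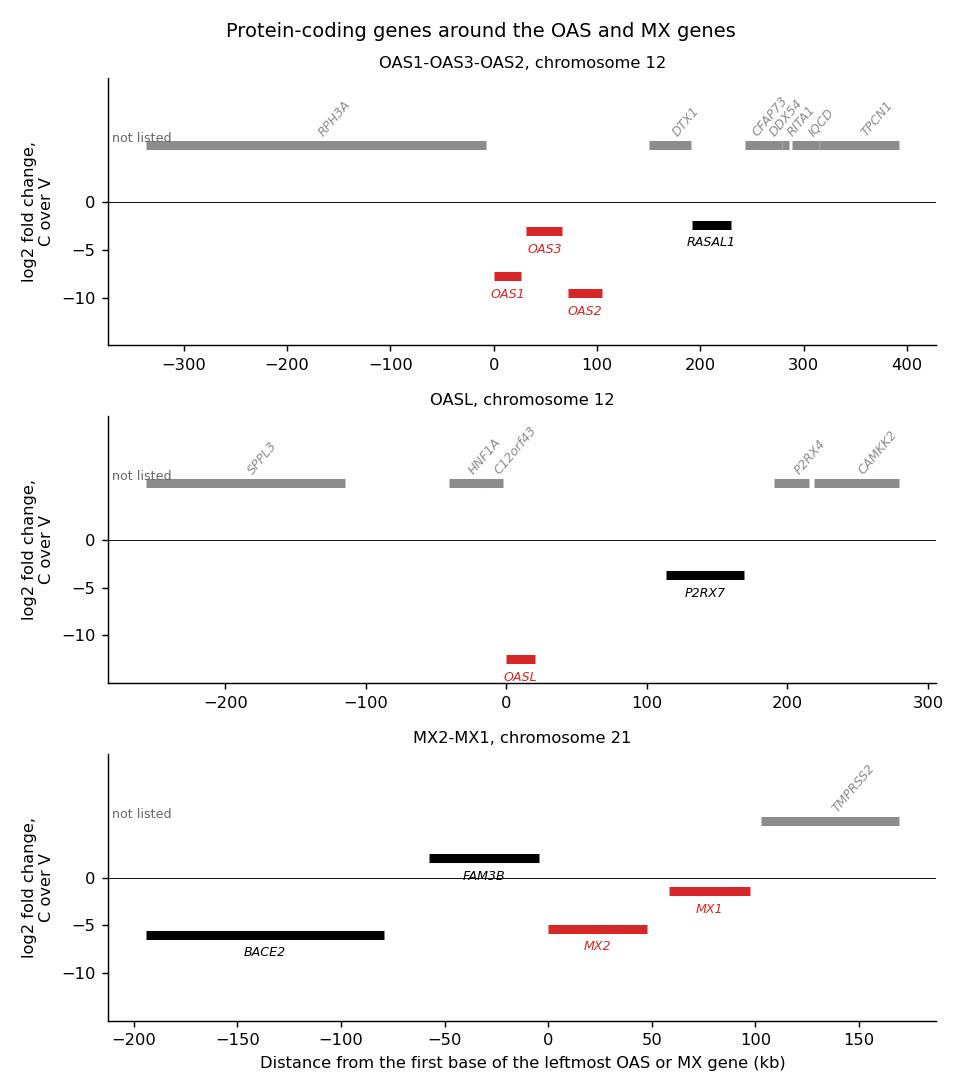
Log2 fold change of C over V for protein-coding genes around the OAS and MX genes, against distance in kb from the first base of the leftmost member in each panel; bar width is the gene's extent, red marks OAS and MX genes and black other listed genes. Grey genes in the upper strip are not listed and have no value; apart from the OAS and MX genes, 4 genes have one, and BACE2 at -5.95 is the farthest from 0.

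Few stretches of these genes occur in other genes. All stretches of 50 bases, the read length, were taken from each gene's transcripts and looked up in the transcripts of all other genes. On the same strand 0 of 3609 stretches of OASL and 0 of 6404 of OAS2 were found elsewhere, and the highest share was 0.615% for OAS3. MX1 and MX2 have 19 stretches in common. On the opposite strand the highest share was 1.65%, for MX1, whose most frequent partner was the antisense gene AP001610.1. A second antisense gene, AC004551.1, spans the OAS trio and shares stretches with OAS1. Neither antisense gene was listed, and whether the counting used strand is not given in the sources used here.

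The promoters were searched because the 6 genes lay on the same side and share a known regulator. RefSeq's promoter table (GRCh38.p14) holds windows of 300 bases, from 250 before a start to 50 after it, and matched 3 of the 6 genes: OAS1 and OAS3 with 1 window each and MX1 with 3. OAS2, OASL and MX2 have no entry. The core of the response element, 2 copies of GAAA with any 2 bases between them, and the form with 1 base between them, GAAANGAAA, were searched on both strands; the second was added after the OAS1 sequence had been seen. Below are the windows of OAS1 (chr12:112906712-112906991, plus strand), OAS3 (chr12:112938224-112938503, plus strand) and the first 2 starts of MX1 (chr21:41420308-41420587 and chr21:41425989-41426268, plus strand). They run 5′ to 3′ to 30 bases after the start, with matches to either form in capitals; overlapping matches run together.
OAS1: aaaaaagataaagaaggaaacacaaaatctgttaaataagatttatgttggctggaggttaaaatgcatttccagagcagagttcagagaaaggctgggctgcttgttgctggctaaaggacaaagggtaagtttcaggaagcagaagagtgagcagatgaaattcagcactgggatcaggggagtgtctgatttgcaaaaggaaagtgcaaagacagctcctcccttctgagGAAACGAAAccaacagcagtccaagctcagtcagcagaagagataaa
OAS3: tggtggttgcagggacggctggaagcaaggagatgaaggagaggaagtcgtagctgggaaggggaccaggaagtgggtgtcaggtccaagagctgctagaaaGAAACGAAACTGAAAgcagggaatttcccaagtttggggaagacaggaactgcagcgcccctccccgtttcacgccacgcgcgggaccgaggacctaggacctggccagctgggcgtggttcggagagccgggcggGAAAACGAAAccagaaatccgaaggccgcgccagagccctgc
MX1 first start: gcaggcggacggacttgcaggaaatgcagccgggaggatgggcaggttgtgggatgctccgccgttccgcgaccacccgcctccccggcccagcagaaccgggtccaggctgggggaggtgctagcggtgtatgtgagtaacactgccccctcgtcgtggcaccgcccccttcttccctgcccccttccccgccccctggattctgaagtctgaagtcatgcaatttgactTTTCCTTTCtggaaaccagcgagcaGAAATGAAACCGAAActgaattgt
MX1 second start: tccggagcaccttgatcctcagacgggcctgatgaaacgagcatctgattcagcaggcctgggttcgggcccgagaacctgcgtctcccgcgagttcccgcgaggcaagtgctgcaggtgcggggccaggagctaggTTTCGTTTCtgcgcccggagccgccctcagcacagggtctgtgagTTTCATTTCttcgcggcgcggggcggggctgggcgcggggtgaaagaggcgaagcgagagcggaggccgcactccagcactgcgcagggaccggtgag

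Positions are counted from the start as 1, with -1 just before it. OAS3 holds the form with 2 bases between at -143 to -134 (GAAACTGAAA) and at -12 to -3 (GAAAACGAAA), the first overlapped by a match with a spacer of 1 base. MX1 holds it at 12 to 21 of the first start. OAS1 has no match to this form and 1 to the shorter spacer, at -17 to -9 (GAAACGAAA). The second MX1 start has 2 matches to the shorter spacer, both on the opposite strand, and the third start has 1 match with 2 bases between, at -196 to -187. Of all 35116 windows in the RefSeq table, 3.57% hold the form with 2 bases between, 3.12% hold GAAANGAAA and 6.40% hold either. The 5 windows of the 3 genes each hold at least 1, but OAS1 and the second MX1 start hold only GAAANGAAA. That form was added after the OAS1 sequence had been seen, so the 5 windows cannot be read against the 6.40%. A match describes letters only, and binding was not measured.

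The pathway around these genes was described from 11 lists holding 100 genes besides the 6. Of these, 33 were listed, 31 were called higher in V and 0 higher in C, where 43.4% of all listed genes and 61.0% of the protein-coding ones were called higher in V. The median log2 fold change of the called genes was -4.84 in the authors' deposited table. The counts by list below are read against the same 43.4% and 61.0%, which are shares of listed genes, while many genes of the lists were not listed. Of the 2-5A system, ABCE1, an inhibitor, and PDE12, an enzyme that degrades 2-5A, were not listed. Of the 4 genes of the cGAS and STING list, related to OAS by fold or by pathway, only MB21D2 was called, at -6.49 ± 1.05 (SE) in the authors' deposited table. Its derived C level was 0.636, so the size is poorly determined.

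Sensors that bind the same kind of RNA as the OAS enzymes were higher in V for 4 of 9 genes, or 4 of the 5 listed (43.4% over all listed genes). DDX58, which encodes RIG-I, stood at -7.47 ± 0.13 (SE), close to OAS1 in size, in the authors' deposited table. The other called genes were IFIH1, which encodes MDA5, TLR3, a sensor in endosomes, and DHX58, which encodes LGP2. In the authors' deposited table they stood at -5.93 ± 0.13, -4.98 ± 0.70 and -4.60 ± 0.15 (± SE), in that order. EIF2AK2, which encodes the kinase PKR, and ADAR, which edits double-stranded RNA, were not listed.

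Interferon genes themselves were called for 5 of 22, all higher in V, and these were the 5 listed (43.4% over all listed genes). Among them were IFNB1 (-9.15 ± 1.20, SE) and IFNL1 (-10.03 ± 1.19, SE) in the authors' deposited table. The derived levels of IFNL1, the highest of them, were 0.163 in C and 171 in V, so the sizes are poorly determined.

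Receptors and signalling genes for these interferons gave no call. Of 8 genes on that list only the receptor chain IL10RB was listed, and it was not called (adjusted p = 0.0804, DESeq2, in the authors' deposited table). IFNAR1, IFNAR2, IFNLR1, JAK1, TYK2, STAT2 and IRF9 were not listed. JAK2, which acts for interferon gamma, was higher in V at -3.29 ± 0.12 (SE), and the receptor IFNGR1 at -1.50 ± 0.15 (SE), in the authors' deposited table. Of 7 interferon regulatory factors 3 were listed and called, all higher in V (43.4% over all listed genes): IRF1 (-5.09 ± 0.19), IRF7 (-1.67 ± 0.16) and IRF2 (-1.43 ± 0.17), ± SE in the authors' deposited table. IRF2 is known as a repressor of interferon genes. IRF3 was not listed. The restraining genes USP18 (-1.75 ± 0.15), SOCS1 (-5.09 ± 0.91) and SOCS3 (-5.34 ± 1.33) were higher in V, ± SE in the authors' deposited table, 3 of a list of 7 and all 3 that were listed (again against 43.4%).

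The GBP genes encode other large GTPases that interferons raise. Of 7 GBP genes 6 were listed and called, all higher in V (43.4% over all listed genes), from GBP4 at -9.05 ± 1.03 (SE) to GBP2 at -4.70 ± 0.32 (SE) in the authors' deposited table. All 6 listed values were larger in size than that of MX1, and the interval of GBP7, at -4.80 ± 1.60 (SE) in the authors' deposited table, overlapped that of MX1. The dynamin list beside MX1 and MX2 had 2 of 14 genes listed and called, EHD4, which acts in endosome traffic (-1.34 ± 0.08), and ATL1, which shapes the endoplasmic reticulum (-1.78 ± 0.58), ± SE in the authors' deposited table. The interval of MX1 overlapped that of both. Of 17 genes on a list of retrovirus restriction, to which MX2 is related by function, 5 were listed and called, all higher in V, again against 43.4% over all listed genes. They were the tether BST2 (-4.84 ± 0.42), the nucleotide hydrolase SAMHD1 (-1.78 ± 0.09), the membrane protein IFITM3 (-1.27 ± 0.13) and the deaminases APOBEC3F and APOBEC3G, with ± SE in the authors' deposited table. The APOBEC3F and APOBEC3G adjusted p-values were 1.88e-10 and 0.0346 (DESeq2, authors' deposited table). The APOBEC3 genes resemble each other in sequence, and how reads were divided among them was not tested.

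**Figure D5:**
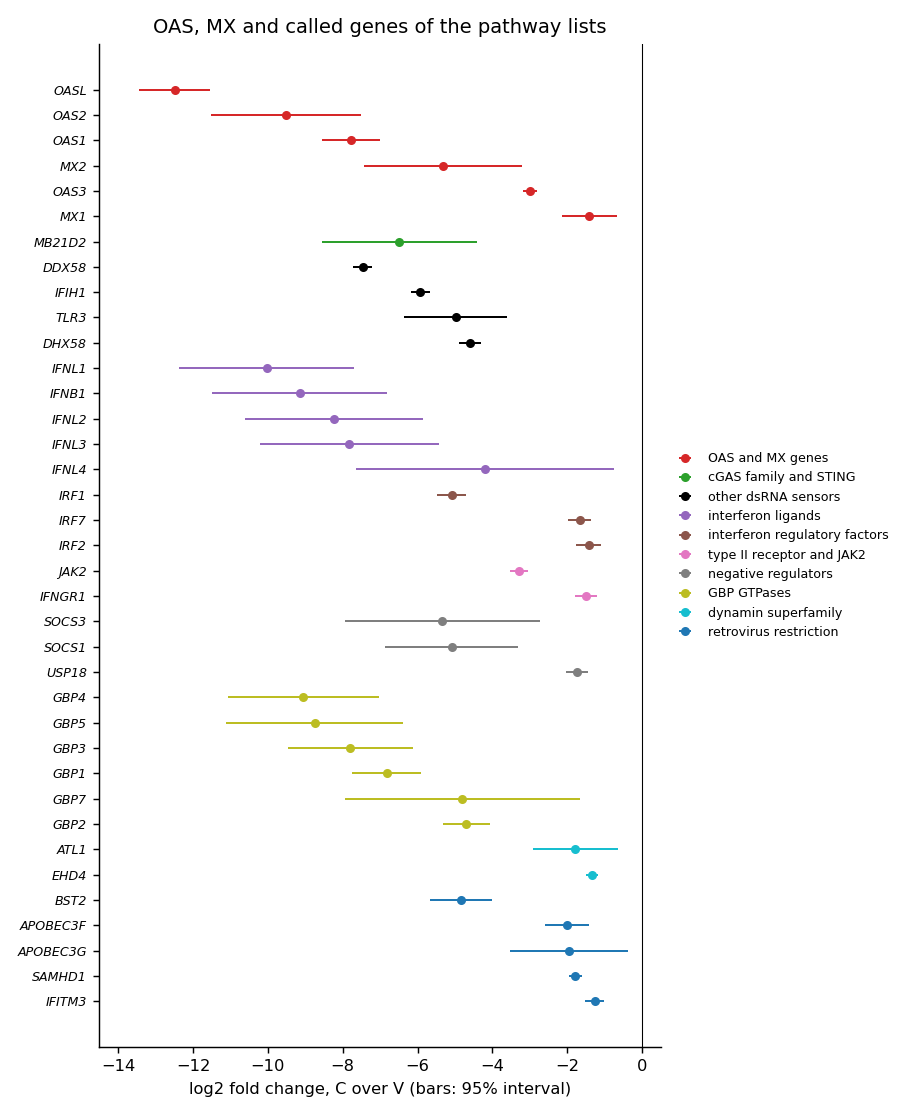
Log2 fold change of C over V with bars of the 95% interval for the 6 OAS and MX genes (red, top) and the 31 called genes of the pathway lists, coloured by list. Every bar lies below 0; MX1 sits among the smallest differences and OASL has the largest.

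Markers of the line and of other cells were checked beside these results. The prostate genes KLK3 and KLK2 had derived levels of 15170 and 2798 in C and 3363 and 466 in V, both called higher in C. The third listed prostate marker, the keratin gene KRT8, was called higher in V, at 1364 in C and 3715 in V, and the other 7 of the 10 genes were not listed. Of 12 leukocyte markers 6 were listed, 5 of them called higher in V (43.4% of all listed genes, 61.0% of protein-coding ones). The levels of these 6 summed to 1.89 in C and 82.0 in V. PTPRC was the highest at 35.7 in V. T cell and B cell markers and all 7 markers of plasmacytoid dendritic cells were not listed. Endothelial markers were listed for 3 of 6, with sums of 5.16 in C and 59.1 in V, and fibroblast markers for 3 of 7, with 91.0 in C and 329 in V. Most of the fibroblast sum was COL1A1, at 72.4 in C and 294 in V, while PDGFRB was called higher in C, at 10.2 against 2.96. These sums were higher in V as the OAS and MX genes were, and their part in the result was not tested.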

How the data were processed

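The series measured RNA from 3 parental and 3 abiraterone-selected C4-2B libraries, from 1 µg of total RNA, read as 50 bp single ends, per the labels' protocols. Both the TruSeq V2 kit and the stranded TruSeq kit appear in the labels, so strandedness is uncertain. The submitters' processing notes list FastQC and Cufflinks 2.2.1, with no role. Aligner, counter and build: not given in the sources used here.

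The authors compared C with V by DESeq2, per the file headers. The mean of normalised counts is a signal value computed by the authors, per the file headers. The log2 values are fold changes estimated by maximum likelihood by the authors, as their header states, and the standard error and Wald statistic are the authors' score columns. The p-value and adjusted p-value are the authors', per the file headers. As checked, every listed p was under 0.05, and 5985 of 5985 p-values above 1e-300 recomputed from the Wald statistic differed from the table's by at most 1%. In 4 genes with an adjusted p of 0 beside a p above 0, it was read as not given, and these genes were not counted as called. Such a 0 can also stand for a value too small to print, so the counts of called genes may be up to 4 too low.

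With no library columns, values were used as listed. Computed here, with Python 3.11.15 and pandas 2.3.3, were derived levels, intervals of 1.96 SE, counts of calls, ranks, neighbours within 250 kb, shared 50-base stretches and promoter matches. Tests on simulated data covered the derived levels, the search for motif positions and the call rules, but not the other steps. Gene types, lengths and positions came from GENCODE release 29, which holds 5935 of the 6018 identifiers. Genes were named by rule: the 6 genes, up to 6 listed genes per list by smallest p, and protein-coding neighbours; genes not listed were named from the same lists, and antisense genes after their sharing was seen. The genes and lists were chosen with earlier results of these data known. Some pathway genes are not reported here. No gene was named for a like pattern, since there are no library values. Alternatives were 4 other call rules, protein-coding genes only, unequal libraries and other motif settings.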

Additional observations from a re-analysis of the deposited data

How the results depend on the processing

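All 6 genes were called higher in V at an adjusted p under 0.001 as well, 5 with a log2 size of 2 or more or with the 95% interval beyond 1 (MX1 lost in both), and 4 with a mean of 100 or more (MX1 and MX2 lost). The share of listed genes called higher in V or in C was 26.2% and 27.4% under the rule on log2 size, and 14.6% and 11.8% under the rule on the mean; the latter also left 15 of the 31 pathway genes called. With 2 libraries of C and 3 of V the derived levels would be at the farthest 0.833 times those given, and with 3 and 2 at the farthest 1.25 times, on either side. The share of promoter windows with a match was 3.02% before the start only, 0.795% with a C after the second GAAA and 3.12% for GAAANGAAA, chosen after seeing the data. No paired analysis was possible because the table has no values per library, and leaving out libraries and other normalizations were not run for the same reason. Coding lengths came from GENCODE, since no protein table was used here. Genes with under 1 derived count in C, OAS2 and MX2, have the least certain sizes.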

Other observations

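Promoter windows of genes called higher in V held 2 copies of GAAA with 2 bases between them in 131 of 2148 (6.10%), those of genes called higher in C in 33 of 1101, and all RefSeq windows in 3.57%. With a C required after the second copy the shares were 2.56%, 0.545% and 0.795%. These are descriptions over windows, several of which can belong to 1 gene, and no test was run.

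On chromosome 21 the antisense gene PLAC4, which lies within BACE2, was also higher in V, at -5.98 ± 1.25 (SE) in the authors' deposited table, with derived levels of 0.334 in C and 21.0 in V. It was chosen after its values were seen, and overlap of its exons with those of BACE2 was not tested.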
